A study of Mus musculus with 4 samples.

Results

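The Myc and Pvt1 domain is taken here as the 3.2 Mb of mouse chromosome 15 from 60800000 to 64000000 (build mm9). CTCF peaks of 4 libraries were merged wherever they overlapped by at least 1 bp, and 25 of the 29116 merged regions of the genome had their centre in this window. The peaks come from chromatin immunoprecipitation of CTCF followed by sequencing in WEHI-231, a B cell lymphoma line from a (BALB/c x NZB)F1 mouse. There were 2 libraries of control cells (Wehi-231-CT) and 2 of cells with a stable short hairpin knockdown of TFII-I (Wehi-231-TFII-I KD). Both were grown in the same medium for at most 12 passages and precipitated with the same CTCF antibody. Whether the control cells carried a vector, and whether the knockdown cells were 1 clone, is not given in the sources used here, nor is it said that the replicates came from separate cultures, so their spread may be technical. A peak list holds neither expression nor tag counts, so the cell type, the knockdown of TFII-I and the sequencing depth were not checked here.

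Myc encodes a basic helix-loop-helix transcription factor that dimerizes with MAX and drives growth and division, and it is a classic oncogene of B cells. Pvt1 is a long noncoding RNA gene next to it, in which retroviral insertions and translocation breakpoints of lymphoid tumours cluster. Enhancers of Myc are spread over the gene-poor chromatin on both sides of the gene, and CTCF, a zinc finger protein that anchors chromatin loops and insulators, is known to bind close to the Myc promoter. TFII-I, the product of Gtf2i, is a transcription factor that binds initiator elements of promoters, and the title of the series asks about its part in bringing CTCF to promoters.

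In the RefSeq gene table Pvt1 is the next gene after Myc. The protein-coding genes before Myc are, from the nearest, A1bg (a plasma glycoprotein), Lratd2, 4933412E24Rik, Trib1 (a pseudokinase) and Nsmce2 (a SUMO ligase of the SMC5/6 complex). After Myc come Gsdmc, Gsdmc2, Gsdmc3 and Gsdmc4, all of the gasdermin family, and Cyrib, a regulator of RAC1. None of the 15 genes listed between Pvt1 and Gsdmc codes for a protein. That table is for a later build, so it served for the order of genes alone, and regions are given below by their mm9 position and their distance from the position of Myc, about 61.82 Mb. As this position is given to 10 kb, a region a few kb from it cannot be placed before or after the start of the gene.

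The region nearest to Myc that was found in every library lay on chromosome 15 from 61814632 to 61815202, about 5.08 kb from the position of the gene on the side away from Pvt1. It is called the Myc-proximal region here. Its score, the authors' own value per peak, was 58.1 in control 1, 89.5 in control 2, 64.4 in knockdown 1 and 66.3 in knockdown 2. Both knockdown scores fell between the 2 control scores, so the groups overlapped. What the score measures is not stated in the sources used here. From its lowest value and its steps it was read as a multiple of the negative log10 of a p-value, which would grow with the number of tags, so scores were not compared across libraries as amounts of binding. The percentile of a peak in its own list (the share of that list with a lower score, ties halved) is given as well. The Myc-proximal region stood at percentile 8.70 and 37.0 in the controls, against 23.3 and 30.3 in the knockdown libraries, or at ranks 22337 of 24467, 15051 of 23873, 14632 of 19076 and 10671 of 15309 peaks. It was thus a low-scoring peak in each list, in the lower 40% of all 4, and the gap between the controls was wider than that between the groups. The mean difference, knockdown minus control, was 3.97 percentile points.

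The place of this peak varied little between libraries. A stretch of 288 bp from 61814806 to 61815093 was covered in all 4, and the centres of the 4 peaks lay within 119 bp of each other. Peak widths were 462 and 310 bp in the controls, against 442 and 417 bp in the knockdown libraries.

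The Myc-proximal region was picked for its call in all 4 libraries. The shares below describe regions of like strength in the controls and are no test of that call. Regions called in both controls were divided over the genome into 10 equal groups by their mean control percentile, and the Myc-proximal region fell in the second weakest. Of the 2078 regions in that group 26.5% were called in all 4 libraries and 32.5% in neither knockdown library. Of the 18 domain regions called in both controls, 7 fell in the weakest 4 groups. Of these 7, only the Myc-proximal region was called in all 4 (14.3%), against 30.2% of 8312 regions in these groups over the genome. The next group up held 3 domain regions, 2 of them called in all 4, so the share depends on the cutoff. The difference in shares was not tested.

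Within 250 kb of the Myc position lay 4 regions, and the Myc-proximal region was the one called in both controls. Both other regions close to the gene were called in control 1 alone. The first, from 61806548 to 61806895, was 13.3 kb from that position, with a score of 76.4 at percentile 25.3. The second, from 61816963 to 61817250, was 2.89 kb from it, with a score of 60.3 at percentile 11.2. This second peak had a score slightly above that of the Myc-proximal region in the same library, but no other library had a call nearer than 1.76 kb, the distance to the knockdown 1 peak of the Myc-proximal region. As control 2 lacked both peaks too, their absence from the knockdown libraries does not separate the groups.

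Directly beyond Myc on the Pvt1 side, a single weak call came before a long empty stretch. The nearest region, from 61922760 to 61923173, lay 103 kb beyond the position of Myc and was called in control 2 alone, with a score of 52.4 at percentile 2.70 (rank 23229 of 23873). The next 711 kb held no CTCF call in any of the 4 libraries. Without a gene annotation of mm9, whether the region at 103 kb lies within the body of Pvt1 was not examined here.

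**Figure D1:**
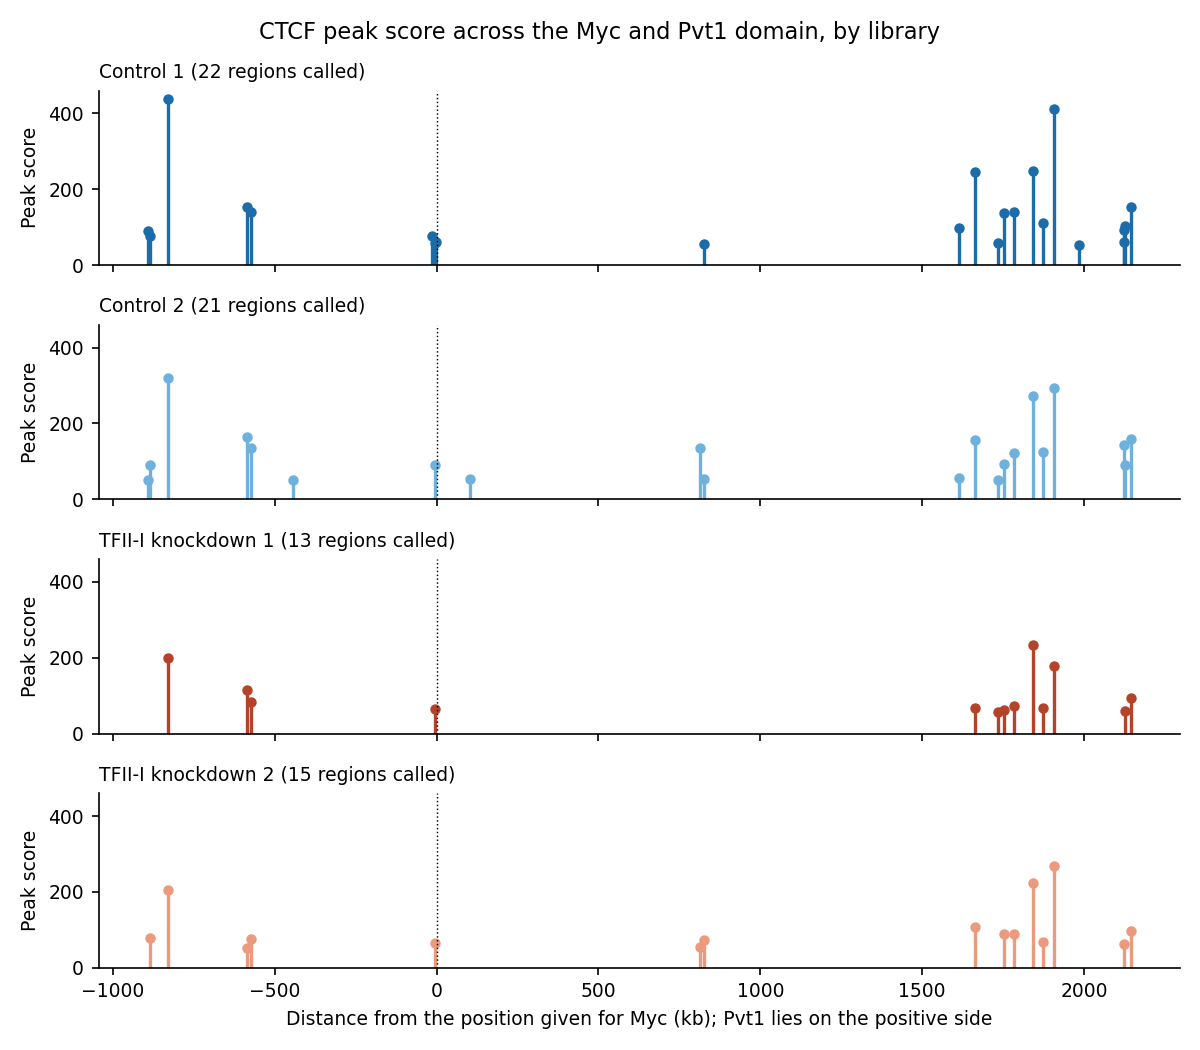
CTCF peak score (vertical axis, the authors' unit) of each called region against its distance from the position given for Myc in kb (dotted line at 0), with 1 panel for each of the 4 libraries. Over the panels, calls form a group below Myc, a small group at Myc, a pair at 814 and 825 kb and a dense group at the far end. The pair has no call in knockdown 1, and control 1 has only the call at 825 kb. The dense group starts at 1613 kb in the controls and at 1664 kb in the knockdown libraries. The 788 kb before 1613 kb are empty in all 4 panels.

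The pair of regions in the middle of the domain, 814 and 825 kb beyond Myc, was called unevenly. The region from 62634159 to 62634749 scored 134 in control 2 (percentile 65.9) and 54.0 in knockdown 2 (percentile 7.35) and had no call in control 1 or knockdown 1. This was the one domain region called in a single library of each group. Its neighbour from 62644542 to 62645125 scored 55.2 in control 1, 53.3 in control 2 and 72.4 in knockdown 2. There its percentile was 40.8, against 5.68 and 3.79 in the controls. Knockdown 1 had no call in either region, and its nearest calls were 819 and 829 kb away.

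The Myc-proximal region stood alone among the regions called in all 4 libraries. Its nearest neighbours of that class were 568 kb away on the side away from Pvt1 and 1669 kb away on the Pvt1 side, so that it was the single such region in 2.24 Mb. Among 11410 autosomal regions called in all 4 libraries and flanked by 2 others, 1.39% had both neighbours at 568 kb or more, and 3.26% lay in a span at least as wide. The median of the nearer distance over these regions was 34.0 kb. Within the span around the Myc-proximal region 7 further regions were called in 1 to 3 libraries.

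The widest distances between regions called in both controls were on the Pvt1 side as well. The first was 830 kb, from the Myc-proximal region to the region at 62644542, and held 3 regions called in 1 of the controls. The second was 788 kb, from that region to the one at 63433054, and held no call in any library. On the autosomes 2.39% and 2.61% of 20233 such distances were as wide. In all, 3 of the 17 distances in the domain exceeded 500 kb (17.6%), against 4.29% on the autosomes and 4.67% on chromosome 15. The median distance in the domain was 51.0 kb, against 39.8 kb on the autosomes and 33.8 kb on chromosome 15. Without control 2 the domain median was 33.8 kb. For regions called in control 1 the median was 34.3 kb on the autosomes and 29.9 kb on chromosome 15. Distances over 500 kb numbered 3 among the domain regions of control 1 (14.3%, against 3.58% on the autosomes). Among those of control 2 they numbered 2 (10.0%, against 3.67%).

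**Figure D2:**
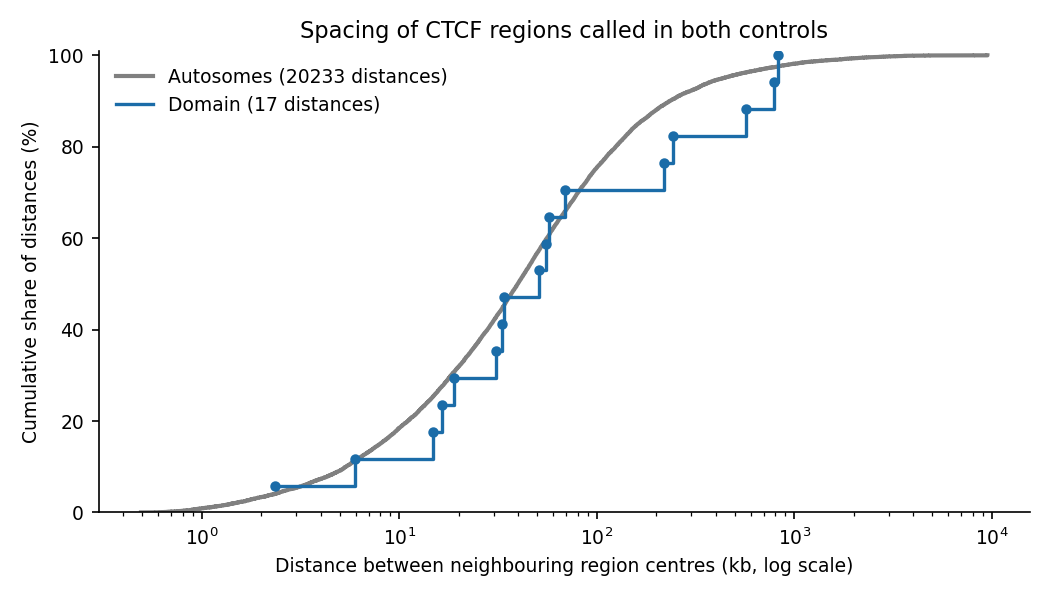
Cumulative share (%) of the distances between neighbouring regions called in both controls, in kb on a log axis, for the 17 distances of the domain (blue) and 20233 on the autosomes (grey). The curves run close together up to about the median of 51.0 kb, and the domain curve then lies to the right, ending with distances of 788 and 830 kb.

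The domain as a whole held 7.81 regions per Mb, against 12.4 on chromosome 15 and 11.7 on the autosomes, measured from the first to the last region of each chromosome. The windows of equal length on either side held 37 regions (below) and 28 regions (above), against 25 in the domain. Of 31 consecutive windows of this length on chromosome 15, 14 held fewer regions than the domain, and the median was 28.0. The low density of the domain is therefore near the middle of the windows of its chromosome, whose counts ran from 1 to 113.

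Calls were concentrated in 4 stretches when the domain was divided at distances over 250 kb without a region, a cutoff chosen with the values known. The stretch below Myc, from 60927990 to 61377279, held 6 regions. That at Myc, from 61806548 to 61923173, held 4, the middle pair spanned 11.0 kb, and the last stretch held 13 regions in 531 kb from 63433054 to 63964015. The last stretch, at the end of the window away from Myc, therefore held 13 of the 25 regions and 7 of the 11 called in all 4 libraries.

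The stretch below Myc contained the domain's highest score. The region from 60988908 to 60989666, 831 kb from Myc, scored 438 in control 1, 321 in control 2, 199 in knockdown 1 and 204 in knockdown 2. Its percentiles were 98.9, 98.1, 96.5 and 97.7 in the same order, so it stayed among the top 4% of each list. The 2 regions from 61232221 to 61232808 and from 61247033 to 61247737, with centres 14.9 kb apart, were also called in all 4 libraries. The first of them scored 154 and 163 in the controls, 116 in knockdown 1 and 52.5 in knockdown 2. Its percentile of 76.4 in knockdown 1 lay between those of the controls (73.0 and 79.5), whereas in knockdown 2 it was 4.43, so the knockdown libraries disagreed there. The second scored 140 and 135 in the controls, against 82.3 and 74.7 in the knockdown libraries. Both its knockdown percentiles, 46.5 and 43.9, lay below its control percentiles of 66.3 and 66.8.

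In the same stretch, the region from 60927990 to 60928347 was called in both controls and in neither knockdown library, a class called control-specific here. It scored 90.3 in control 1 and 50.4 in control 2, where it stood at percentile 0.356, near the lowest score of the list. Its neighbour 5.95 kb on, from 60933847 to 60934391, scored 77.2 in control 1, 91.5 in control 2 and 79.4 in knockdown 2 and was not called in knockdown 1. The last region of the stretch, from 61376914 to 61377279, was called in control 2 alone with a score of 50.1.

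The last stretch held 2 of the 3 strongest regions of the domain. The region from 63727016 to 63727994, 1908 kb beyond Myc, scored 412, 293, 177 and 269 in control 1, control 2, knockdown 1 and knockdown 2. Its percentiles were 98.8, 97.5, 94.9 and 99.1, so the groups overlapped. The region from 63660005 to 63661099, the widest of the domain at 1095 bp, scored 247, 273, 234 and 223. Here the percentiles of 97.9 and 98.4 in the knockdown libraries were above the 94.7 and 96.8 of the controls, though both its knockdown scores were below its control scores. It was the one region of the domain with both knockdown percentiles above both controls.

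These wide regions were split into 2 peaks in some libraries. In the region from 63660005, control 2 had peaks scoring 68.6 and 273 separated by 82 bp, and knockdown 1 had peaks scoring 79.6 and 234 separated by 98 bp, where control 1 and knockdown 2 had 1 peak each. In the region from 63727016 knockdown 1 had peaks scoring 130 and 177 separated by 107 bp, and the other libraries 1 peak. Counts of peaks thus exceed counts of regions by 1 in control 2 and by 2 in knockdown 1.

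Among the remaining regions of that stretch, the one from 63484046 to 63484554 had scores of 245 and 155 in the controls, against 66.9 and 107 in the knockdown libraries. Its percentile was 26.8 in knockdown 1 and 76.1 in knockdown 2, both below the 94.5 and 76.4 of the controls. Knockdown 2 was only just below control 2. The region from 63693453 to 63694037 scored 111 and 124 in the controls, against 68.2 and 67.4 in the knockdown libraries. Its knockdown percentiles of 28.6 and 31.9 were both below its control percentiles of 50.2 and 60.5. The region from 63963354 to 63964015 scored 153 and 160 in the controls, against 94.2 and 96.1 in the knockdown libraries, at percentiles of 72.4 and 78.5 against 59.2 and 68.7. The regions from 63572049 to 63572667 and from 63603007 to 63603690 overlapped between groups in percentile. In both, knockdown 1 stood lowest (19.9 and 35.2) and knockdown 2 (62.6 and 62.3) between the controls.

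The other control-specific region of the domain opened the last stretch, from 63433054 to 63433574. It scored 96.7 in control 1 and 55.8 in control 2, at percentiles of 40.5 and 6.59, and the nearest knockdown calls were 50.6 kb away in both libraries. Both control-specific regions of the domain were thus weak in control 2. Regions called in both controls and 1 knockdown library included a close pair, from 63944590 to 63945324 and from 63947025 to 63947580, with centres 2.35 kb apart. The first scored 93.5 in control 1, 143 in control 2 and 63.8 in knockdown 2. The second scored 102 in control 1, 90.6 in control 2 and 58.2 in knockdown 1. Each knockdown library therefore had a call in a different member of the pair. The region from 63553211 to 63553800 scored 58.2 in control 1, 51.6 in control 2 and 56.5 in knockdown 1. The last 2 regions, from 63803412 to 63803779 and from 63942802 to 63943417, were called in control 1 alone, with scores of 53.0 and 60.9.

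Across the domain the knockdown libraries had fewer peaks, as they had over the genome. The domain held 22 peaks in each control and 15 in each knockdown library, or 68.2% of the control mean, against 71.1% for the complete lists. The two-sided exact permutation test gave p = 0.333, the smallest that 2 libraries against 2 can reach, so it could not pass 0.05. As a share of all peaks of a library, the domain took 0.0899% (95% Clopper-Pearson interval 0.0564 to 0.136%) in control 1 and 0.0922% (0.0578 to 0.139%) in control 2. In knockdown 1 this share was 0.0786% (0.0440 to 0.130%) and in knockdown 2 it was 0.0980% (0.0548 to 0.162%). The intervals cover counting error only. The group means of 0.0910% ± 0.00158 and 0.0883% ± 0.0137 (SD, n = 2 each) differed by less than the spread between the knockdown libraries, with p = 1.00 in the exact permutation test. With each list limited to its 15309 highest-scoring peaks, the domain held 13 and 15 peaks in the controls and the same numbers, 13 and 15, in the knockdown libraries, so the difference in peak number was not present at equal list length.

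Calls in the knockdown libraries were about as frequent in the domain as over the genome. Of the 25 regions 17 were called in 1 or both knockdown libraries (68.0%), against 74.8% of all regions. Of the 25, 11 were called in all 4 libraries (44.0%), against 40.3%, and 6 in 1 library only (24.0%), against 20.0%. Of the 18 domain regions called in both controls, 11 were called in all 4 libraries (61.1%, 95% Clopper-Pearson interval 35.7 to 82.7%), against 56.5% of 20780 such regions. A further 5 (27.8%, 9.69 to 53.5%) were called in 1 knockdown library, 2 of them in knockdown 1 and 3 in knockdown 2, against 28.7%. The 2 control-specific regions made up 11.1% (1.38 to 34.7%), against 14.8%. Each genome-wide share lies within the interval of the domain. With a reciprocal overlap of 50% required for a call, 7 of 17 regions called in both controls were called in all 4 libraries. The count of control-specific regions was 2 again. This rule was applied to the domain alone. The 56.5% over the genome rests on overlaps of at least 1 bp and is not its background. Leaving out 1 library loosens the class by construction. Control-specific were then 4 of 21 regions without control 1 and 6 of 22 without control 2. Without knockdown 1 there were 4 of 18, and without knockdown 2 there were 5 of 18. Each total is the number of regions called in every control kept. Genome-wide shares with 1 library left out are not given here. No region of the domain was called in knockdown libraries alone, against 5.84% of all regions, and over the genome 1.14% of those with calls in both knockdown libraries lacked any control call. A count of 0 of 25 allows a share of up to 12.0% when the limit is set at 3 counts, and up to 13.7% by the 95% Clopper-Pearson interval, so a difference from that background was not detectable. In lists of equal length, and without control 2, 1 region was called in knockdown libraries alone.

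**Figure D3:**
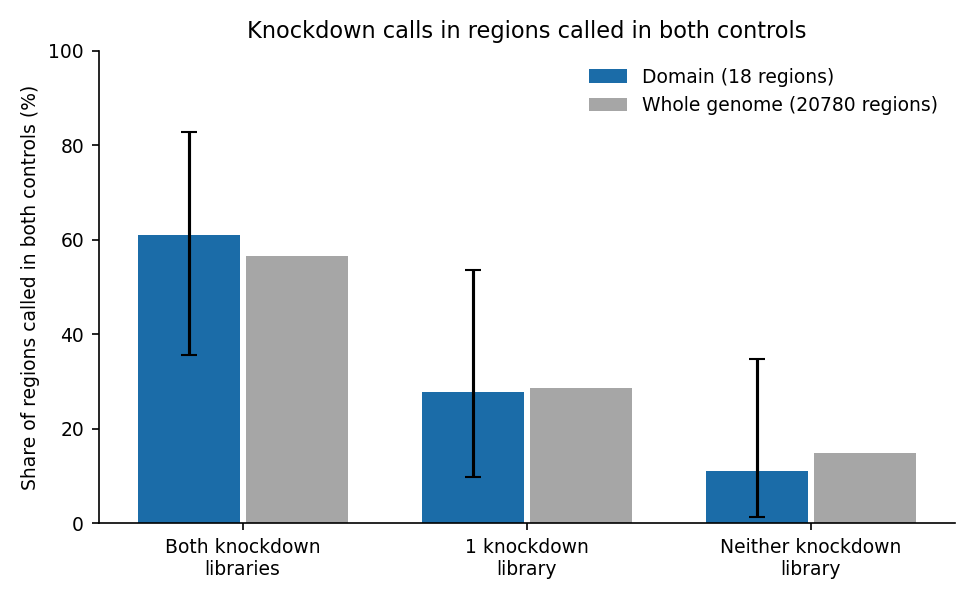
Share (%) of the regions called in both controls that were called in both, 1 or neither of the knockdown libraries, for the 18 regions of the domain (blue, with 95% Clopper-Pearson intervals) and all 20780 (grey). Each grey bar lies within the interval of the blue bar beside it, such as 56.5% against 35.7 to 82.7% for both libraries.

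The 11 regions called in all 4 libraries stood lower in the knockdown lists on average. Their mean percentile was 71.9 in control 1 and 71.8 in control 2, and 55.0 in knockdown 1 and 61.4 in knockdown 2. The difference of the group means, knockdown minus control, was -13.6 points, with p = 0.333 in the exact permutation test, again the smallest possible. Over all 11741 regions of this class the means were 66.1 and 65.6 in the controls, against 59.6 and 55.5 in the knockdown libraries, a difference of -8.29 points. Regions of this class make up a larger part of the shorter knockdown lists, which by construction brings their mean percentile nearer to the middle. When ranked only among the regions of this class, the domain regions had mean percentiles of 58.5 and 56.6 in the controls, against 45.9 and 56.5 in the knockdown libraries, a difference of -6.34 points. The value for knockdown 2 was then next to that of control 2, and the difference came from knockdown 1. Without knockdown 1, the difference within complete lists was -6.33 points over the 14 regions then called in every library. This is a different set from the 11 regions, so -6.33 and -13.6 points are not directly comparable. Over the 11, knockdown 2 stood at 61.4 within complete lists, against 71.9 and 71.8 in the controls.

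**Figure D4:**
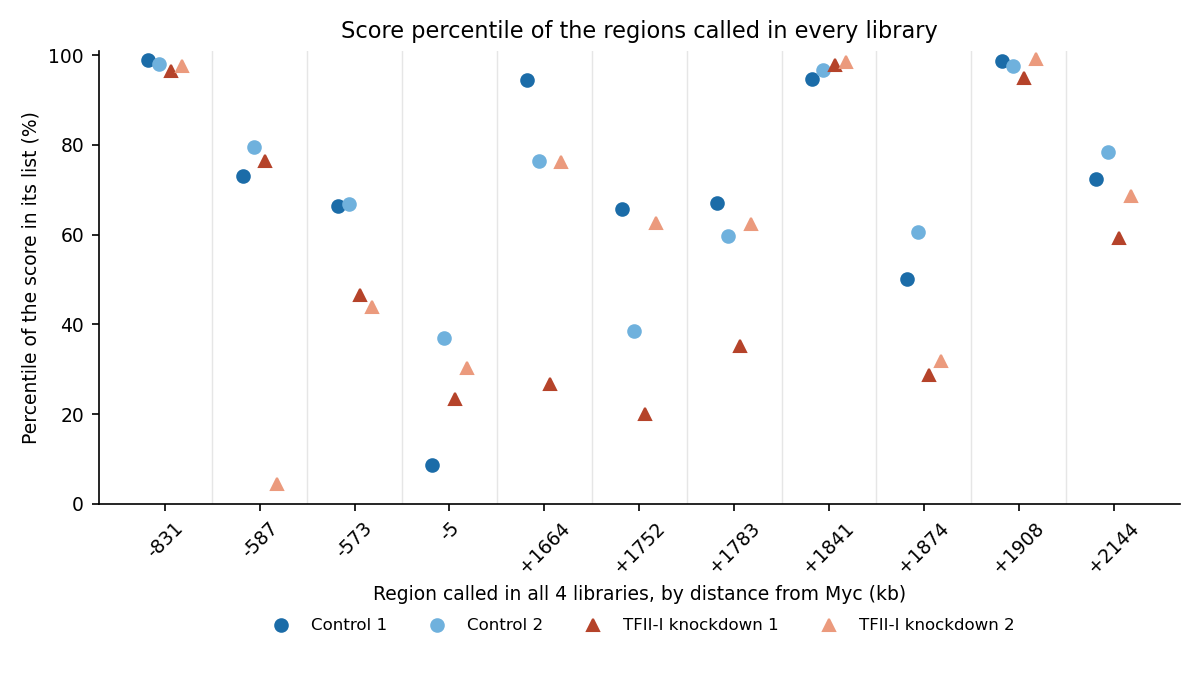
Percentile (%) of the score within its own list for each of the 11 regions called in all 4 libraries, ordered by distance from Myc in kb, with circles for the controls and triangles for the knockdown libraries. The regions at -831, +1841 and +1908 kb stay above 94% in every library, the region at -5 kb is below 40% in every library, and the knockdown triangles are far apart at -587 and +1664 kb.

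Taken one by one, 10 of the 11 regions had both knockdown scores below both control scores, and the Myc-proximal region was the exception. Over the genome 62.0% of the regions of this class had this order, and 1.93% had the reverse. Scores are also lower in the knockdown lists as a whole, and the part of that shift in the count was not tested. By percentile in the complete list, 5 of the 11 had both knockdown values below both controls, against 28.9% over the genome, 1 had both above, against 11.1%, and 5 overlapped. By percentile among the regions of this class, 2 stood below (17.9% over the genome) and 1 above (19.2%), and the remaining 8, among them the Myc-proximal region, overlapped. Overlap here means that the groups were not separated, and single libraries among the 8 still stood far apart, such as knockdown 2 at 2.97 against 54.1 and 64.3 in the controls for the region from 61232221.

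The order of strength was alike in the controls. Spearman's rho of the scores over the 11 regions was 0.927 between the controls, 0.500 between the knockdown libraries, and between 0.627 and 0.900 for pairs of a control and a knockdown library. Over all 11741 regions it was 0.602 between the controls and 0.367 between the knockdown libraries. These are descriptions across regions, which share the libraries they were measured in and are no replicates.

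Peaks of knockdown 1 were narrow. Their median width over the 11 regions, taking the higher-scoring peak where a region was split, was 303 bp, against 588 and 496 bp in the controls and 437 bp in knockdown 2, and knockdown 1 had the narrowest peak in 10 of the 11. In the Myc-proximal region control 2 had the narrowest. Knockdown 1 was also the narrowest over the complete lists, with median widths of 483 and 507 bp in the controls, 328 bp in knockdown 1 and 446 bp in knockdown 2. In each of the 11 regions the calls of the 4 libraries, taken between their outermost ends, shared a stretch of 161 to 725 bp. In the regions split into 2 peaks this stretch includes the uncovered bases between the peaks, as in the one of 725 bp. The centres of the 4 calls, from the same ends, lay within 59.0 to 162 bp of each other.

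The bounds of the window cut no group of calls at the lower end but did so at the upper end. The nearest region below the window, from 59973186 to 59973761, was 827 kb outside it, with scores of 321 and 168 in the controls, against 337 and 134 in the knockdown libraries. The first region above, from 64005973 to 64006676, was 6.32 kb outside, with scores of 147 and 226 in the controls, against 126 and 94.9 in the knockdown libraries. It was called in all 4 libraries, like the last region inside.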

How the data were processed

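CTCF ChIP-seq peak lists of 2 control and 2 TFII-I knockdown libraries were used, 1 list per library, with 15309 to 24467 peaks. The deposited lists give a position and the authors' score per peak; BWA, HOMER and mm9 are named, with neither version nor role, per the submitters' processing notes, and the peak names contain MACS. For input use and caller settings the sources used here give nothing. The lowest score was 50.0 in each list.

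Peaks overlapping by at least 1 bp were merged, the highest score of a library was taken per region, and regions with a centre in the window were kept. Named regions were those within 250 kb of Myc, all control-specific ones, the 5 with the highest mean percentile and those beside the 2 widest distances; the rest are given for completeness. The members and lists were chosen with earlier results of these data known. Groups were compared over libraries with two-sided exact permutation tests. Alternatives were a score of at least 100, equal list length, merging within 500 bp, 50% reciprocal overlap, ranks within the regions called in all 4 libraries, a replicate block, and leaving out each library. Gene order came from RefSeq (GRCm38.p6), and no mm9 genome was used here. Merging was tested on simulated data. Python 3.11.15, numpy 2.4.6, pandas 2.3.3, scipy 1.17.1 and matplotlib 3.10.9 were used.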

Additional observations from a re-analysis of the deposited data

How the results depend on the processing

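Among the alternatives, a score of at least 100 gave 4 control-specific regions of 9 called in both controls, in place of 2 of 18. The median spacing was then 88.1 kb in place of 51.0 kb. Lists of equal length gave 1 control-specific region of 12, a spacing of 33.8 kb and a difference of 0 in peak number. Both use fewer peaks by construction. Leaving out 1 library gave 4 to 6 control-specific regions and a spacing of 33.8 to 53.1 kb. For control-specific regions no genome-wide share under these settings is given here. Regions called in both knockdown libraries and no control numbered 0 in all of these settings, with 50% reciprocal overlap and with merging within 500 bp. Regions called in any knockdown library and no control numbered 1 with lists of equal length and 1 without control 2, in place of 0. With 50% reciprocal overlap 7 regions were called in all 4 libraries in place of 11. This rule sets each peak against the widest peak of its region, so a narrow or split peak misses it. Knockdown 1 missed it in the regions from 61247033 (161 of 699 bp), 63660005 (300 of 931 bp), 63727016 (405 of 967 bp) and 63963354 (226 of 662 bp). In the region from 63660005 control 2, also split, missed it too. Whether binding differed there was not tested. The mean percentile difference of the regions called in all libraries stayed below 0. It ran from -15.8 without knockdown 2 to -3.28 at a score of at least 100, where 3 regions were left. With lists of equal length it was -7.04 points over 10 regions, with p = 0.667 in the exact permutation test. Ranked among the regions called in all 4 libraries it was -6.34 points. Within complete lists all 11741 regions called in all 4 gave -8.29 points, so a sign below 0 there is not particular to the domain. For the alternatives no genome-wide difference is given here, and several of them change the set of regions. With a replicate block the differences were -7.00 peaks and -13.6 points, each with p = 0.500 in the exact sign-flip test, the smallest that 2 pairs allow. Percentile differences between the controls and between the knockdown libraries correlated at r = 0.0126 over 11741 regions called in all 4. Percentiles remove shifts of a whole library. Whether same-numbered libraries were processed together therefore cannot be told from this value. The lists hold no tag counts, and depth therefore limits every comparison of calls.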
